A study of Mus musculus with 15 samples.

Results

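Transcripts of 10 genes that drive the circadian clock or carry its signal to other genes were followed in heart muscle cells after exposure to iron ions. The genes were Arntl, Clock, Npas2, Rora, Nfil3, Dbp, Tef, Hlf, Usp2 and Wee1, named by symbol, and each was read from 1 probe set with a single gene symbol (the brightest over the 15 arrays where a gene has several). For 9 of the 10 genes a probe set was read, and Npas2 was not analysed here. These 9 are among 19937 named genes on the array, and all 9 passed the filter on low signal (a mean log2 signal above 5.51) that left 9968 genes to test. Arntl (mean 5.75) passed it only through iron days 7, 14 and 28, where its signal was high. The RNA came from isolated left ventricular cardiomyocytes, the contractile cells of the main pumping chamber, of male C57Bl/6NT mice aged 8 to 9 months. Exposed mice were given 0.15 Gy of iron (56Fe) ions over the whole body, with a particle energy of 1 GeV per nucleon (LET, the energy deposited along the track, 151 keV per µm), and controls were sham exposed. Iron-exposed cells were collected after 1 day (3 arrays), 3 days (3 arrays) and 7, 14 and 28 days (2 arrays each). The sham group holds 3 arrays, 2 from day 1 and 1 from day 3.

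The sham arrays come from days 1 and 3, so for days 7, 14 and 28 the exposure and the time since it cannot be told apart. The hour of the day at which cells were isolated is not given in the sources used here, so for genes that cycle over the day the hour and the group cannot be told apart either. Nothing in the labels ties each array to a mouse of its own. The p-values therefore describe array-to-array spread, possibly only technical, and the 2 or 3 arrays of a group limit the precision. All 10 cardiomyocyte markers looked up, among them Myh6, Tnnt2 and Ryr2, lay at or above the 99.4th percentile of mean signal, and their mean log2 level was 12.03 to 12.23 on every array. Cells were freed with collagenase and selected for calcium tolerance, and the labels allow for a few inflammatory or endothelial cells among them. Some arrays stood apart in genes of other cells. The mean log2 level of 9 lymphocyte and thymocyte markers was 6.50 on the sham day 3 array and 7.40 and 7.51 on the iron day 28 arrays, against at most 5.84 on any other. Fibroblast markers averaged 7.31 to 7.45 in sham, 5.94 to 6.16 on iron day 3 and 6.87 to 7.26 on iron day 7, and macrophage markers 7.32 to 7.60, 6.15 to 6.46 and 7.86 to 8.35. In these bulk samples RNA from other cells and a change within cardiomyocytes cannot be told apart, nor can fewer cells of a type and less RNA per cell.

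The mammalian clock is a feedback loop of transcription. ARNTL (also called BMAL1) pairs with CLOCK, or with its relative NPAS2, binds E-box sequences and switches on the genes of its own repressors, the period and cryptochrome proteins, together with output genes such as Dbp. The nuclear receptor RORA activates Arntl through ROR elements, while the REV-ERB receptors, encoded by Nr1d1 and Nr1d2, repress it there, so Arntl transcripts peak in opposite phase to those of Dbp. DBP, TEF and HLF are related leucine zipper activators that bind D-box sequences, and NFIL3 (E4BP4) represses through the same sequences. The heart keeps such a clock of its own, which is known to time metabolism and the expression of ion channels.

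The promoter sequences of the members were searched for the elements named above. RefSeq (GRCm38.p6) windows of 300 bases, from 250 before to 50 after an annotated start, were found for 9 of the 10 genes (all but Wee1), 13 windows in all. They were searched on both strands for the E-box CACGTG, its variant CACGTT, the D-boxes TTATGTAA and TTACGTAA and the core of the ROR element, TAGGTCA. A match occurred in 4 windows of 3 genes, and all 4 are shown here. Capitals mark the match.
Arntl (ROR element core, window 2), chr7:113207261-113207560, + strand: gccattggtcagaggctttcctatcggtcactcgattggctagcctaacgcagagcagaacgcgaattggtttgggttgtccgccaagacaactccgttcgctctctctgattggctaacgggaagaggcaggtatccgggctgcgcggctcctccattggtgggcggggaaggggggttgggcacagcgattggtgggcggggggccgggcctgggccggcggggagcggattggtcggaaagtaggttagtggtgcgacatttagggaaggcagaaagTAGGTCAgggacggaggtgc
Nfil3 (ROR element core on the opposite strand), chr13:52980990-52981289, - strand: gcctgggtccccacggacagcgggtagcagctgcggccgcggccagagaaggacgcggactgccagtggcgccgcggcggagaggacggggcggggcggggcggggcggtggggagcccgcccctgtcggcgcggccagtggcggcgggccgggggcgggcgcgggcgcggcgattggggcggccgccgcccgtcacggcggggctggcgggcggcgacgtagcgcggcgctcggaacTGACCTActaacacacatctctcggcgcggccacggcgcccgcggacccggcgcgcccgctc
Tef (E-box, window 1), chr15:81802423-81802722, + strand: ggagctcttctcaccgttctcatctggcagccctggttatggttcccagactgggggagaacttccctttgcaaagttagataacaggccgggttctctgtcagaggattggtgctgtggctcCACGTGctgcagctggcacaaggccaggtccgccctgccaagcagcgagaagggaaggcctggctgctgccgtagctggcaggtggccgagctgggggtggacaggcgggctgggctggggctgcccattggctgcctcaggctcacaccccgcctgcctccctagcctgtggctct
Tef (E-box, window 2), chr15:81811164-81811463, + strand: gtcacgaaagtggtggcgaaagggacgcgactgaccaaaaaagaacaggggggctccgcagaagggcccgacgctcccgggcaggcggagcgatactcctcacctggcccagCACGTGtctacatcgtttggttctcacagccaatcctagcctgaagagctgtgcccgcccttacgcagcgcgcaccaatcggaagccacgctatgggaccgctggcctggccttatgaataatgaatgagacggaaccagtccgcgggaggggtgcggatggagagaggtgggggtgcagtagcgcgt
The match in Arntl begins 30 bases after the start annotated for that window, and the one in Nfil3 12 bases before its start. Those in Tef begin 127 and 138 bases before its 2 annotated starts. Over all 32851 windows, 2.61% held the ROR element core and 7.15% the E-box, while 4.68% held the E-box variant and 1.06% a D-box. Counted by gene, the ROR element core was in 2.97% and the E-box in 8.09% of 27025 genes. A match describes the sequence and is not evidence of binding. No match to these letters lay in window 1 of Arntl or in the windows of Clock, Npas2, Rora, Dbp, Hlf or Usp2.

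Of the 9 clock genes, 5 had separate levels on an early set of arrays (sham and iron days 1 and 3) and a late set (iron days 7, 14 and 28). Arntl stood higher and Dbp, Tef, Usp2 and Wee1 lower on each of the 6 late arrays than on any of the 9 others. Groups without overlap of this kind were found for 5 of the 9 members (1 higher, 4 lower) and for 1.42% of all genes tested (0.562% higher, 0.863% lower). The split into these 2 sets was not among the planned comparisons, and the members were chosen with earlier results of these data known. These shares are therefore a description and not a test. The 1 higher member is Arntl, which passed the filter only through the late arrays. The distance between the 2 sets was widest for Dbp, whose highest late value (8.25) lay 1.26 below its lowest early value (9.51), and for Arntl, whose lowest late value (6.77) lay 1.18 above its highest early value (5.59). Nfil3, Hlf, Clock and Rora overlapped between the 2 sets.

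**Figure D1:**
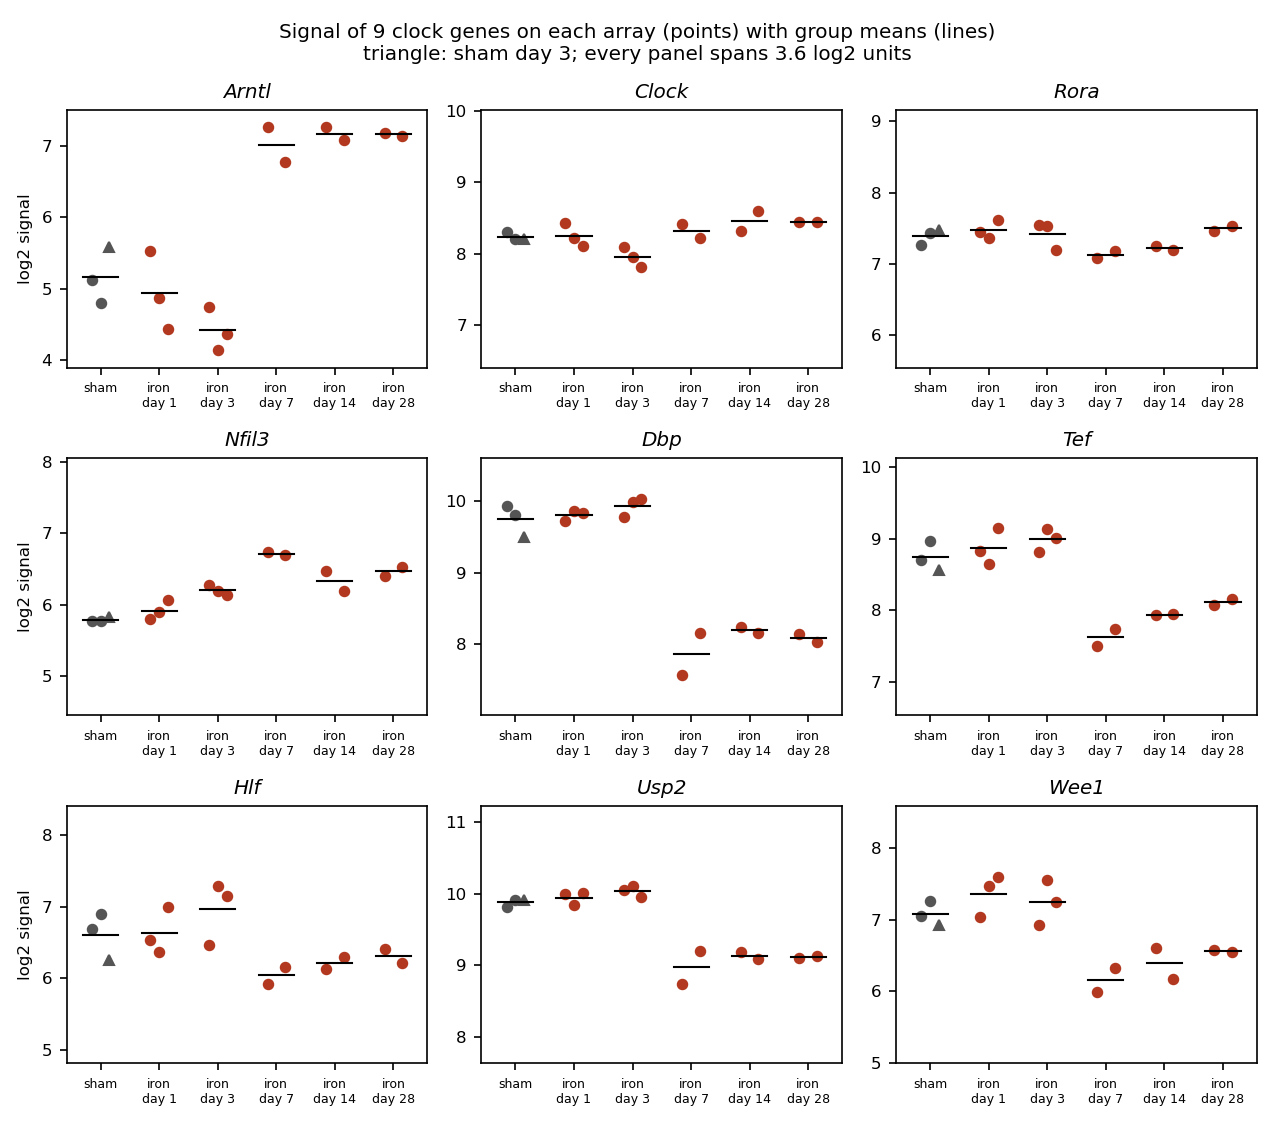
Log2 signal (vertical axis) of the 9 clock genes on each of the 15 arrays (points) by group (horizontal axis), with group means as lines and the sham day 3 array as a triangle; every panel spans the same range of log2 units. Arntl stands at 4.14 to 5.59 on the early arrays and 6.77 to 7.26 on the late ones, and Dbp at 9.51 to 10.03 and 7.58 to 8.25.

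Arntl, the activator at the centre of the loop, had the largest rise. Its log2 signal was 5.12 and 4.80 on the sham day 1 arrays and 5.59 on the sham day 3 array. It was 5.52, 4.87 and 4.43 on iron day 1 and 4.75, 4.14 and 4.37 on iron day 3. The iron day 3 arrays thus lay below all 3 sham arrays. On iron day 7 the values were 7.26 and 6.77, on day 14 they were 7.26 and 7.08, and on day 28 they were 7.19 and 7.14. Arntl passed the filter on low signal only through these 3 late days, and its sham mean (5.17) lay below the filter (5.51). Its tests on the late days are thus not independent of how it was kept, and are given as a description. Against sham, Arntl rose by 1.85 on the log2 scale on day 7 (SE 0.289, 3.59-fold, adjusted p = 0.00691 by limma), by 2.0 on day 14 (SE 0.289, adjusted p = 0.00329) and by 1.99 on day 28 (SE 0.289, adjusted p = 0.00263). Each of these calls was lost without replicate 1 of its own day, where the difference was 1.60, 1.91 and 1.97 and the adjusted p was 0.0779, 0.0777 and 0.0501, the highest of the 22 or 23 alternatives of each result (lowest 0.00118, 0.000583 and 0.000234). The difference on day 3 was -0.75 (SE 0.259, adjusted p = 0.0887), which did not pass. It passed without replicate 1 of iron day 1 (adjusted p = 0.0390).

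Clock, the partner of ARNTL, and Rora, its activator, stayed in a narrow range. Clock lay between 7.82 and 8.59 on all 15 arrays, lowest on iron day 3 (8.09, 7.95 and 7.82) and highest on iron day 14 (8.31 and 8.59). Its difference from sham was -0.29 on day 3 (SE 0.107, adjusted p = 0.109), and 0.08, 0.21 and 0.20 on days 7, 14 and 28, with 95% intervals from -0.18 to 0.34, from -0.04 to 0.47 and from -0.06 to 0.46. None of these passed, while the F test among the 5 iron days did (adjusted p = 0.0335). Rora lay between 7.09 and 7.61, with the 4 arrays of iron days 7 and 14 (7.09 to 7.26) below all 3 sham arrays (7.27 to 7.48). It differed from sham by -0.26 on day 7 (SE 0.119, adjusted p = 0.201; interval from -0.52 to -0.0050), by -0.17 on day 14 and by 0.11 on day 28, and passed no test. A rise of Clock or Rora as large as that of Arntl lies outside these intervals.

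Nfil3, the D-box repressor, was the only member that passed on day 3. Its log2 signal was 5.77, 5.77 and 5.83 in sham, with the day 3 array last, and 5.80, 5.89 and 6.07 on iron day 1. It was 6.28, 6.20 and 6.13 on iron day 3, above all sham arrays, and 6.74 and 6.70 on iron day 7, the highest of the series. On iron days 14 and 28 it was 6.47 and 6.19, and 6.41 and 6.54. Against sham it rose by 0.41 on day 3 (SE 0.0963, adjusted p = 0.0241), by 0.92 on day 7 (SE 0.108, adjusted p = 0.00118), by 0.54 on day 14 (SE 0.108, adjusted p = 0.0349) and by 0.68 on day 28 (SE 0.108, adjusted p = 0.00457). The day 7 call held in all 23 alternatives (adjusted p from 0.000757 to 0.0189). The day 3 call was lost in 8 of 23 (adjusted p from 0.0154 to 0.130), among them the fits without the sham day 3 array (0.0575), without either sham day 1 array (0.0769 and 0.0505) and without replicates 1 or 2 of iron day 3 (0.0837 and 0.0802). The day 14 call was lost in 14 of 23 (adjusted p from 0.0211 to 0.368, the highest without replicate 1 of day 14), 8 of them by leaving out 1 array, and the day 28 call without replicate 2 of day 28 (0.121; range from 0.00364). The mean of 10 immediate early genes differed from sham by 0.97 on iron day 3, 0.87 on day 7, -0.21 on day 14 and 0.47 on day 28. Of the 9 tested, 4 rose on day 3, when 2.79% of all genes tested did, and 0 passed on day 7 by limma (7 had p under 0.05 before adjustment). Their part in the Nfil3 result was not tested.

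Dbp had the largest fall among the members and the smallest p of them in each comparison of a late day with sham. The log2 signal was 9.93 and 9.82 on the sham day 1 arrays and 9.51 on the sham day 3 array. It was 9.72, 9.87 and 9.84 on iron day 1 and 9.78, 9.99 and 10.03 on iron day 3. It then stood at 7.58 and 8.16 on day 7, 8.25 and 8.15 on day 14, and 8.15 and 8.04 on day 28. The early arrays of iron and sham overlapped, and no late array came near them. Dbp fell by 1.88 on day 7 (SE 0.156, 3.69-fold, adjusted p = 9.35e-05), by 1.55 on day 14 (SE 0.156, adjusted p = 0.000162) and by 1.66 on day 28 (SE 0.156, adjusted p = 8.46e-05). These calls held under every alternative run (23 or 24 for each), with adjusted p up to 0.0178, 0.00525 and 0.00387.

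Tef and Hlf, the other leucine zipper activators of this family, moved less than Dbp. Tef stood at 8.70 and 8.97 on sham day 1, 8.56 on sham day 3, 8.82, 8.65 and 9.15 on iron day 1 and 8.82, 9.14 and 9.02 on iron day 3. Its late values were 7.51 and 7.73 on day 7, 7.93 and 7.95 on day 14, and 8.08 and 8.16 on day 28, the 3 days not overlapping. Tef fell by 1.13 on day 7 (SE 0.152, adjusted p = 0.00276; up to 0.0441 over 24 alternatives) and by 0.81 on day 14 (SE 0.152, adjusted p = 0.0228). On day 28 it stood at -0.63 (SE 0.152, adjusted p = 0.0514), just outside the threshold, and 6 of 23 alternatives called it (adjusted p from 0.0207 to 0.316), among them the fit without the sham day 3 array (0.0241). The day 14 call was lost without replicate 1 or 2 of that day (adjusted p = 0.240 and 0.0654) and without either sham day 1 array (0.0756 and 0.0640), with a lowest value of 0.00923 over 24 alternatives. Hlf ran from 6.25 on the sham day 3 array to 7.30 on an iron day 3 array among the early arrays, and lay between 5.92 and 6.41 on the late arrays. It differed from sham by -0.57 on day 7 (SE 0.248, adjusted p = 0.183; interval from -1.10 to -0.03), by -0.39 on day 14 (adjusted p = 0.452) and by -0.30 on day 28 (adjusted p = 0.536), and passed on none of them.

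Usp2 and Wee1, clock outputs outside the leucine zipper family, fell by about the same amount on day 7. Usp2 encodes a deubiquitinase and is strongly rhythmic in many tissues. Its log2 signal was 9.81, 9.91 and 9.91 in sham, 9.99, 9.84 and 10.01 on iron day 1, and 10.05, 10.11 and 9.96 on iron day 3, where it lay above all sham arrays (0.16, SE 0.101, adjusted p = 0.317). On days 7, 14 and 28 it was 8.74 and 9.20, 9.18 and 9.09, and 9.09 and 9.13. It fell by 0.91 on day 7 (SE 0.113, adjusted p = 0.00154), by 0.74 on day 14 (SE 0.113, adjusted p = 0.00434) and by 0.76 on day 28 (SE 0.113, adjusted p = 0.00298). The day 7 call was lost in the fit of only the arrays compared (adjusted p = 0.0845; lowest of 24 alternatives 0.000226). The day 14 and day 28 calls were lost without replicate 1 of each day (0.0528 and 0.0672; lowest 0.000470 and 0.000274).

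Wee1 encodes a kinase that holds cells before mitosis and links the clock to cell division. Its values were 7.05, 7.26 and 6.93 in sham, 7.03, 7.47 and 7.59 on iron day 1, and 6.93, 7.55 and 7.25 on iron day 3. The late values were 5.99 and 6.33 on day 7, 6.61 and 6.18 on day 14, and 6.57 and 6.55 on day 28, all below every early array. It fell by 0.92 on day 7 (SE 0.202, adjusted p = 0.0252) and stood at -0.69 on day 14 (SE 0.202, adjusted p = 0.137) and -0.52 on day 28 (SE 0.202, adjusted p = 0.184), which did not pass. The day 7 call was lost without replicate 1 of that day (adjusted p = 0.174), without either sham day 1 array (0.0618 and 0.0762) and with only the arrays compared (0.0898), over 24 alternatives from 0.0130 to 0.174.

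By day, 0 of 9 members passed against sham on day 1 in limma (0 at an unadjusted p under 0.05), where 0.0602% of all genes did, and 1 rose on day 3 (3 at an unadjusted p under 0.05), where 8.04% of all genes passed (2.79% higher, 5.25% lower). On day 7, 6 of 9 passed, 2 higher and 4 lower, against 4.61% of all genes (1.95% higher, 2.67% lower). On day 14, 5 passed (2 higher, 3 lower) against 0.833% (0.592% higher, 0.241% lower), and on day 28, 4 passed (2 higher, 2 lower) against 2% (1.41% higher, 0.582% lower). The higher members on days 7, 14 and 28 include Arntl, which passed the filter only through those days. Arrays of iron and sham did not overlap for 0, 4, 8, 8 and 7 members on days 1, 3, 7, 14 and 28, and for 13.4%, 35.6%, 37.8%, 30.7% and 45.1% of all genes. The members' median difference from sham was 0.07, 0.16, -0.57, -0.39 and -0.30 on days 1, 3, 7, 14 and 28, and that of all genes tested was between -0.03 and 0.04. These comparisons share the 3 sham arrays. Without the sham day 3 array the counts were 0, 0, 6, 4 and 5. The day 14 count was 1 without replicate 1 of that day and 3 without either sham day 1 array, and the day 28 count was 2 without replicate 1 of day 28. Between the sham days themselves the members differed by -0.54 (Hlf) to 0.63 (Arntl), with 1 array on day 3, and 0 of 9 passed by limma (adjusted p from 0.555 to 0.953, 0 with p under 0.05 before adjustment), against 0.371% of all genes. With 1 array on one side, this test says little about whether the sham days differ. For Arntl, Dbp, Tef, Hlf and Wee1 the sham day 3 array was displaced from the sham day 1 arrays in the direction of the late iron arrays, by 0.63, -0.36, -0.28, -0.54 and -0.23.

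**Figure D2:**
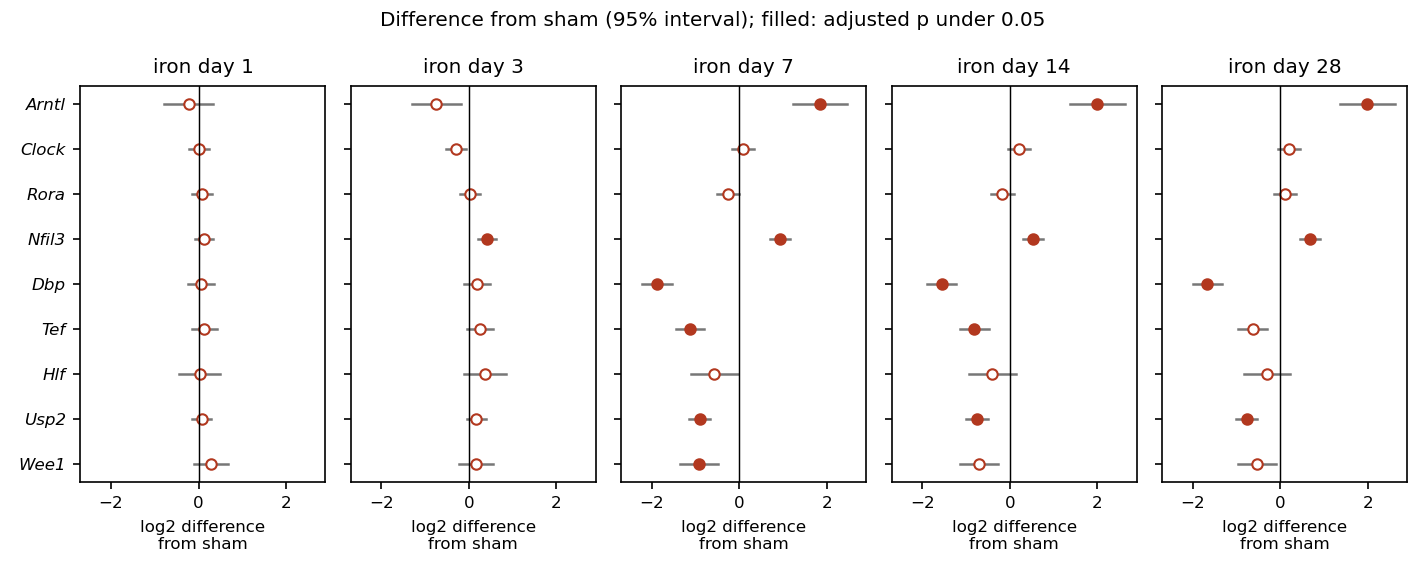
Log2 difference from sham (horizontal axis) of each clock gene (vertical axis) on each iron day, with 95% intervals from the limma fit; filled points have an adjusted p under 0.05. The 6 filled points on day 7 are Arntl (1.85) and Nfil3 (0.92) to the right and Tef (-1.13), Wee1 (-0.92), Usp2 (-0.91) and Dbp (-1.88) to the left.

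The comparison of neighbouring iron days asks when the change took place. Its differences do not use the sham arrays, while its standard errors and p-values come from the same fit of all 15 arrays. From day 1 to day 3, 0 of 9 members passed in limma (2 at an unadjusted p under 0.05), against 0.0502% of all genes, and 2 members had no overlap, against 19.7%. From day 3 to day 7, 7 of 9 passed (2 higher, 5 lower), against 14.8% of all genes (6.75% higher, 8.07% lower). Arntl, among the 2 higher, passed the filter only through the late days. Arntl rose by 2.59 (SE 0.289, 6.04-fold, adjusted p = 0.000415) and Nfil3 by 0.51 (SE 0.108, adjusted p = 0.00829). Dbp fell by 2.07 (SE 0.156, 4.19-fold, adjusted p = 2.88e-05), Tef by 1.37 (SE 0.152, adjusted p = 0.000415), Wee1 by 1.08 (SE 0.202, adjusted p = 0.00480), Usp2 by 1.07 (SE 0.113, adjusted p = 0.000347) and Hlf by 0.93 (SE 0.248, adjusted p = 0.0244). Clock (0.37, SE 0.119, adjusted p = 0.0548) and Rora (-0.29, SE 0.119, adjusted p = 0.113) did not pass, although day 3 and day 7 arrays did not overlap for any of the 9 (47.4% of all genes had no overlap here). Clock passed in 6 of 23 alternatives (adjusted p from 0.0345 to 0.400) and Rora in 1 of 23, without replicate 3 of iron day 3 (adjusted p = 0.0325; highest 0.453). Without replicate 1 of iron day 7 the count was 4, with Nfil3, Hlf and Wee1 at adjusted p = 0.0985, 0.216 and 0.0910, the highest of their 22 or 23 alternatives (lowest 0.00607, 0.00951 and 0.00186). Hlf was also lost without replicate 2 or 3 of iron day 3 (0.0937 and 0.0704).

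No later step passed for any member. In limma 0 of the 9 passed from day 7 to day 14, as did 0% of all genes, and 0 passed from day 14 to day 28, against 0.321% of all genes (0.311% higher, 0.01% lower), with 1 and 0 members at an unadjusted p under 0.05. Both steps had 3 members without overlap, against 38.1% and 61.8% of all genes. The member nearest to passing was Nfil3, lower by 0.39 on day 14 than on day 7 (SE 0.118, adjusted p = 0.197). Among the others the differences from day 7 to day 14 ran from 0.09 (Rora) to 0.33 (Dbp), and those from day 14 to day 28 from -0.11 (Dbp) to 0.27 (Rora). With 2 arrays a day the SE was 0.12 to 0.32, and differences of this size did not pass. The F test among the 5 iron days passed for 7 of 9 members and for 19.2% of all genes, with Dbp at adjusted p = 1.05e-05. Arntl, kept by the filter for its late signal, was among the 7. Hlf (0.0612) and Rora (0.111) did not pass it.

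Markers of other cells also moved between iron days 3 and 7, when 8 of 8 tested macrophage markers and 8 of 9 fibroblast markers rose, with medians of 2.04 and 0.96. Over this step 6.75% of all genes tested were higher. From day 7 to day 14 the macrophage and fibroblast medians were -1.16 and -0.65, where 0 of these markers passed by limma, although 8 and 5 of them had p under 0.05 before adjustment. Over the same step Arntl moved by 0.16 and Dbp by 0.33. On days 7, 14 and 28 the macrophage list mean differed from sham by 0.65, -0.45 and -0.53, the fibroblast mean by -0.33, -0.90 and -0.43, the endothelial mean by -0.47, -0.53 and -0.01, and the mean of 3 erythroid markers by -1.34, -1.53 and -0.87. The fibroblast and erythroid means were thus below sham on all 3 late days, as Dbp was. The endothelial mean was below sham on days 7 and 14 and close to sham on day 28. All 3 of these list means were also below sham on iron days 1 and 3. Fibroblast means differed by -0.80 and -1.32, endothelial by -0.54 and -1.11 and erythroid by -1.47 and -2.56. Dbp differed from sham by 0.06 and 0.18 on those days. The cardiomyocyte list mean differed from sham by at most 0.09 on any day. The part of other cells in the clock result was not tested.

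**Figure D3:**
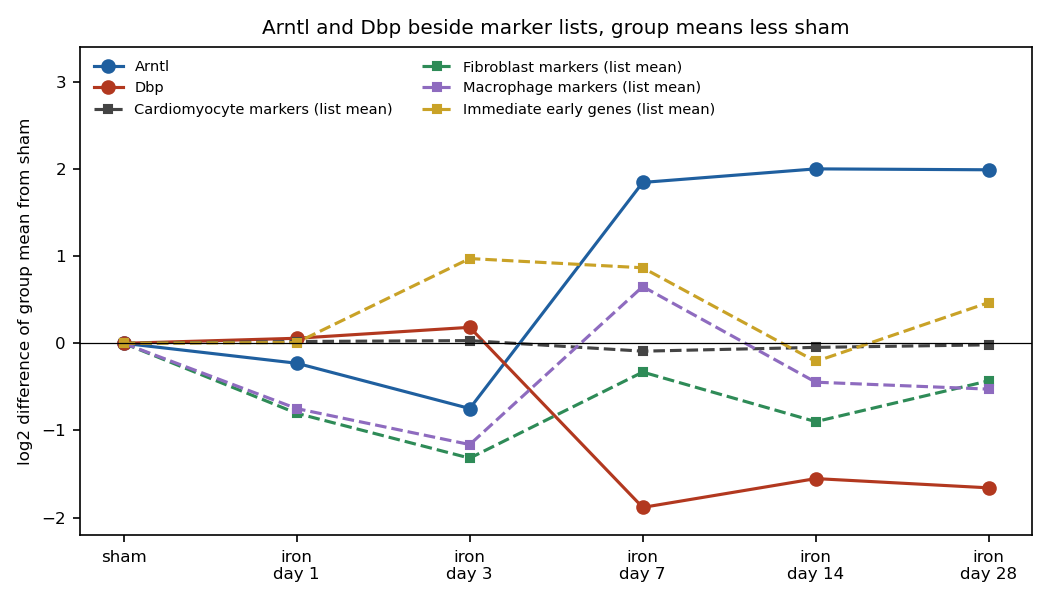
Group mean less the sham mean (vertical axis, log2) for Arntl, Dbp and the mean of 4 gene lists, by group (horizontal axis). Arntl stays between 1.85 and 2.0 and Dbp between -1.88 and -1.55 on the 3 late days, while macrophage markers stand at 0.65, -0.45 and -0.53 and fibroblast markers at -0.33, -0.90 and -0.43.

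Arntl also varied with some of the other members among the early arrays. Its mean there was 4.84, below the filter of 5.51 and below the median of all probe sets on any array (4.96 to 5.13). The early relations therefore rest on low values of Arntl. Since the arrays fall into 2 sets, relations were computed within the 9 early and the 6 late arrays, for Arntl with each of the other 8 members (16 relations). Neither these relations nor the split into 2 sets was among the planned comparisons, so their p-values are given as a description. In the early set Arntl ran against Hlf (Pearson's r = -0.82, Spearman's rho = -0.82, exact permutation p = 0.00753 and 0.0108), Tef (r = -0.81, rho = -0.80, p = 0.00875 and 0.0138, exact permutation) and Dbp (r = -0.78, rho = -0.70, p = 0.00999 and 0.0433, exact permutation), and with Clock (r = 0.81, rho = 0.80, p = 0.00870 and 0.0138, exact permutation). For r, all 4 relations reached adjusted p = 0.0399 (exact permutation), and none passed for rho (adjusted p = 0.0738 or, for Dbp, 0.152). Without the 2 arrays farthest from the median of Arntl, r over the other 7 was -0.79 for Hlf, -0.86 for Tef, 0.85 for Clock and -0.45 for Dbp. The relation to Dbp was thus weaker without those 2, whose removal also narrows the range of Arntl. Wee1 (r = -0.73), Nfil3 (r = -0.72), Usp2 (r = -0.51) and Rora (r = -0.08) did not pass. Without the same 2 arrays r was -0.59 for Wee1, -0.69 for Nfil3, -0.83 for Usp2 and -0.34 for Rora. In the late set no relation passed (r from -0.48 to 0.42, adjusted p from 0.522 to 0.919 by exact permutation). Leaving out 2 of its arrays left 4, over which r ran from -0.82 (Dbp) to 0.87 (Nfil3), so these values rest on few arrays. The 9 early arrays belong to 3 groups, and the iron day 3 arrays have the lowest group mean of Arntl (4.42), so part of the relation lies between groups. Values were permuted freely over the 9 arrays, so these p-values do not separate shifts between groups from variation within them.

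**Figure D4:**
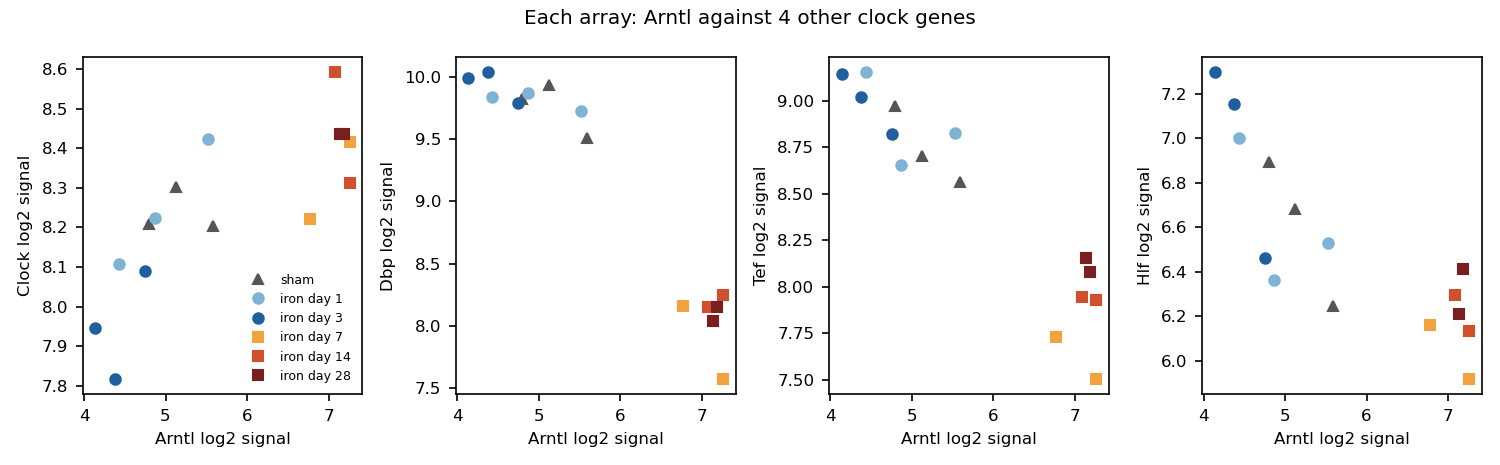
Log2 signal of Clock, Dbp, Tef and Hlf (vertical axes) against that of Arntl (horizontal axes), 1 point per array, with triangles for sham, circles for iron days 1 and 3 and squares for iron days 7, 14 and 28. Within the early arrays (Arntl at 4.14 to 5.59) Hlf and Tef are lower where Arntl is higher, and the late arrays form a separate set at 6.77 to 7.26.

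The repressors that close the loop were read for comparison. Of 10 genes of the negative limb 9 were tested, and 7 fell on day 7, 5 on day 14 and 5 on day 28, with 0 higher on any of these days. Of all genes tested, 2.67%, 0.241% and 0.582% were lower on these days and 1.95%, 0.592% and 1.41% higher. The median difference of the 9 was -0.62, -0.64 and -0.57. Per2 and Per3, which encode period proteins, fell on all 3 days, by 1.55 and 1.93 on day 7, and so did Ciart, which encodes a repressor of CLOCK and ARNTL, by 2.67. Nr1d1, the REV-ERB gene whose protein represses Arntl, overlapped between the early and late sets (8.03 to 9.39 and 8.41 to 9.30) and passed on no late day. It stood at -0.60 on day 7 (SE 0.301, adjusted p = 0.244), -0.02 on day 14 and 0.08 on day 28. Nr1d2 fell by 0.41 on day 7 (SE 0.0948, adjusted p = 0.0309) and stood at -0.32 and -0.09 on days 14 and 28, which did not pass. Across the 15 arrays the 5 genes most like Dbp in pattern, out of 9959, were Ciart (r = 0.96), Per3 (r = 0.95), Cry2 (r = 0.95), Casq2 (r = 0.95), which encodes a calcium store protein, and Per2 (r = 0.95). The 5 most like Arntl were Tmem140 (r = 0.91), Adam19 (r = 0.91), Spon2 (r = 0.90), Zdhhc18 (r = 0.89) and Rpl34 (r = 0.89). The arrays fall into the 2 sets above, so these correlations are given as a description, with no test. Of the 2 lists, Spon2 and the 5 genes like Dbp passed on day 7, where 4.61% of all genes tested did. The lists were picked from these same arrays, so passing on day 7 is in part built into the choice.

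Genes that the clock is described to control in the heart were read next. Of 10 tested, 2 fell on day 7, 0 passed on day 14 (limma, with 0 under an unadjusted p of 0.05) and 1 fell on day 28, with medians of -0.14, 0.07 and -0.10. Among all genes tested, 2.67% fell on day 7, 0.833% passed on day 14 and 0.582% fell on day 28. Tcap, which encodes a Z-disc protein of the sarcomere, fell by 0.80 (SE 0.186, adjusted p = 0.0312) and the potassium channel gene Kcnh2 by 0.73 (SE 0.181, adjusted p = 0.0381) on day 7. Bdh1, an enzyme gene of ketone body use, fell by 0.69 on day 28 (SE 0.156, adjusted p = 0.0396). Of 7 tested relatives and co-factors of the members 0 passed on days 7, 14 and 28 by limma, where 1, 2 and 0 had p under 0.05 before adjustment. The same held for 7 tested clock kinases and ubiquitin ligases (2, 1 and 1 at an unadjusted p under 0.05).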

How the data were processed

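The deposited values were log2 signals of 34760 probe sets, per the values themselves, as the authors deposited them. MAS5 is listed in the submitters' processing notes, but what it was used for is not given in the sources used here. GEO's platform annotation gave 21640 probe sets with 1 symbol, 1321 with several and 11799 with none, and 19937 genes were kept with their brightest probe set. Genes above the 50th percentile of mean signal were fitted with limma 3.58.1 in R 4.3.3 (6 group means, intensity trend, 9 residual degrees of freedom), with adjusted p values by Benjamini and Hochberg over all 9968 genes and a threshold of 0.05. Standard errors are those of the fit. The pipeline was tested on simulated data. The members and lists were chosen with earlier results of these data known. Besides the members, genes of the fixed lists and the 5 genes most correlated with Dbp or Arntl were named. Each result was recomputed after centring arrays on their medians, after quantile normalization, with no filter, with a stricter one (6646 genes), without the trend, with a replicate block, on only the arrays compared, against sham day 1 arrays alone, without each array in turn and, added after seeing the data, without the 3 arrays high in lymphocyte and thymocyte markers. Figures were drawn with matplotlib 3.10.9.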

Additional observations from a re-analysis of the deposited data

Results flagged for a closer look

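The differences of the clock members from sham changed between neighbouring iron days in 7 cases, all from day 3 to day 7, by the limma contrast of those days. They were 2.59 for Arntl, 0.51 for Nfil3, -2.07 for Dbp, -1.37 for Tef, -0.93 for Hlf, -1.07 for Usp2 and -1.08 for Wee1 on the log2 scale, with adjusted p from 2.88e-05 to 0.0244. For Arntl the difference from sham turned from -0.75 on day 3 to 1.85 on day 7, and for Dbp from 0.18 to -1.88. Arntl passed the filter on low signal only through the late days. Groups of 2 or 3 arrays are too small for the check on single outlying arrays, which was not run.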

How the results depend on the processing

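No member reversed direction under any alternative where it or the alternative was called. Over all alternatives, 42 of the members' calls were lost, 14 were gained and 1816 values kept their side of the threshold. Each member has 1 probe set, so the alternative of other probe sets was not run, and leaving out the sham day 3 array is the same fit as using sham day 1 arrays alone. The count of members passing on day 3 was 1 and became 0 with the replicate block, only sham day 1 arrays as control, and the 3 lymphocyte-high arrays left out. The stricter filter removed Arntl and Nfil3 before testing and left 7 members, so its counts of 0 on day 3, 3 on day 14 (5 as reported) and 2 on day 28 (4) reflect that removal. No call of a remaining member was lost on these days. Leaving out 1 array gave 0 to 2 on day 3, 1 to 5 on day 14, 2 to 5 on day 28, 4 to 8 from day 3 to day 7 and 4 to 6 on day 7. Arrays left alone in a group were assumed to vary like the other groups. With the replicate block, which the numbers alone do not justify (residuals of same-numbered arrays correlated at -0.39 to 0.57, 11 of 31 pairs above 0.1, and 14 of 50 for other numbers), 6, 4 and 5 members passed on days 7, 14 and 28. Counts over all genes moved more, from 460 to 45 (only the arrays compared) and 1269 (median centring) on day 7, from 801 to 155 (replicate block) on day 3 and from 199 to 107 (stricter filter) on day 28. On day 3 the count was 107 without the 3 lymphocyte-high arrays and 1083 without replicate 1 of iron day 1. Leaving out arrays also lowered and raised the counts on days 7, 14 and 28, where it can leave 1 array in a group. Median centring took the share of higher genes from 42.2% to 15% on day 7, from 34.7% to 22.9% on day 3 and from 70.9% to 38% on day 28, and the median of all genes on day 7 from -0.03 to -0.12. The cause of these moves was not tested. With 2 or 3 arrays a group, their number limits the precision.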
